A study of Mus musculus and Homo sapiens with 47 samples.

Results

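The BCL2 family was followed at the RNA level in SUDHL10, a human B cell lymphoma line, under 2 compounds that target Polycomb repressive complex 2 (PRC2). The members were a named list of 10 genes, BCL2, BCL2L1, MCL1, BCL2A1, BCL2L11, BBC3, PMAIP1, BID, BAX and BAK1, out of 25369 genes in the count table. All 10 were found by symbol, and all 10 passed the expression filter that left 15278 tested genes. BCL2 family proteins decide whether the outer mitochondrial membrane is opened to release cytochrome c and start the caspase cascade. The guardians BCL2, BCL-XL (the product of BCL2L1), MCL1 and BFL1 (the product of BCL2A1) hold in check the pore-forming effectors BAX and BAK (the product of BAK1). The BH3-only proteins BIM, PUMA, NOXA and BID, made from BCL2L11, BBC3, PMAIP1 and BID, bind the guardians or activate the effectors in response to stress. B cell lymphomas depend on this balance, and BCL2 itself is silenced in normal germinal centre B cells and often overexpressed in lymphomas of that origin.

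RNA was counted in 13 SUDHL10 libraries. Cells treated with UNC1999, an inhibitor of the PRC2 methyltransferases EZH2 and EZH1, gave 2 libraries at each of days 1, 3, 5 and 6. Cells treated with MAK683, which binds the PRC2 subunit EED, gave 1 library at each of days 1, 3 and 5. Both compounds were given at 5 uM. The 2 untreated libraries were of day 5, so at the other days treatment and day differ together and cannot be told apart. All libraries come from 1 cell line. The labels call them biological replicates without naming separate cultures, and p-values therefore reflect how far these libraries scatter, possibly for technical reasons alone. For each MAK683 day, with 1 library, the scatter was borrowed from the replicated groups, which assumes a like scatter.

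Totals ran between 26234896 and 39315662 counts per library. The B cell markers MS4A1, CD79A, CD79B, PAX5 and CD22 were all present in every library, with a summed level of 2080 to 4310 CPM (counts scaled to effective library size). Of the T cell genes, CD3D and CD2 had at most 3 counts in any library and CD3E up to 358, and the summed level of the 3 was highest at UNC1999 day 6 (10.4 to 10.9 CPM, against 1.62 to 2.08 CPM in untreated cells). Of the myeloid genes, CD14 had at most 3 counts, LYZ up to 194 and CSF1R up to 133, with a sum of 0 to 6.55 CPM over all libraries. The part of these genes' cells in the results was not tested. The MAK683 day 5 library stood apart from the rest of the treated libraries. Across tested genes its log2 CPM correlated at r = 0.96 to 0.963 with the untreated libraries and at 0.923 to 0.939 with the other treated ones, whereas replicates of 1 group correlated at 0.984 to 0.989. Member levels in it are given beside those of MAK683 days 1 and 3, and what sets it apart was not tested. Its label was taken as given and could not be checked from the counts, which bears on every MAK683 day 5 value and on the comparison of the compounds at that day. In bulk RNA, fewer cells of a type and less RNA per cell cannot be told apart.

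Most members differed from untreated cells under both compounds, in opposite directions within the family. BBC3, PMAIP1, MCL1 and BCL2A1 were lower and BID was higher in all 4 UNC1999 groups and in MAK683 groups of days 1 and 3. BCL2 was lower at day 1 of UNC1999 and at days 1 and 3 of MAK683, and higher at day 6 of UNC1999 and day 5 of MAK683. At MAK683 day 5 no member was called lower by edgeR with TMM scaling, the expression filter and all libraries, where BCL2A1, BAX, PMAIP1 and BID were lower at an unadjusted p under 0.05. BAX and PMAIP1 were called lower there by edgeR with DESeq2's size factors or no filter, in some edgeR fits without 1 library, and by DESeq2's Wald test. Over the 7 comparisons with untreated cells, which all share the same 2 untreated libraries, 70 member tests gave 25 higher, 32 lower and 13 that did not pass (edgeR's quasi-likelihood test with Benjamini-Hochberg adjustment over all tested genes, adjusted p under 0.05). Of all tested genes, between 29.6% (MAK683 day 5) and 58.7% (UNC1999 day 5) passed in these comparisons.

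Under UNC1999, 9 of the 10 members passed at day 1, 3 higher and 6 lower, where 54.7% of all tested genes passed (28.2% higher, 26.5% lower). At day 3 the count was 8 members, 4 higher and 4 lower, against 57.1% of all tested genes (30.1% higher, 26.9% lower). At day 5 it was 9 members, 4 higher and 5 lower, against 58.7% (31.3% higher, 27.4% lower), and at day 6 all 10 members, 5 higher and 5 lower, against 58.2% (30.9% higher, 27.3% lower). Under MAK683, 9 members passed at day 1, 3 higher and 6 lower, where 48.6% of tested genes passed (26.2% higher, 22.4% lower). At MAK683 day 3 the count was 8 members, 2 higher and 6 lower, against 48.4% (26.2% higher, 22.2% lower). At MAK683 day 5 it was 4 members, all higher, against 29.6% (15.5% higher, 14.1% lower). Leaving out either UNC1999 day 3 library raised that number of members, and the share of all tested genes in those fits is not given here. No test was made of the members as a set.

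**Figure D1:**
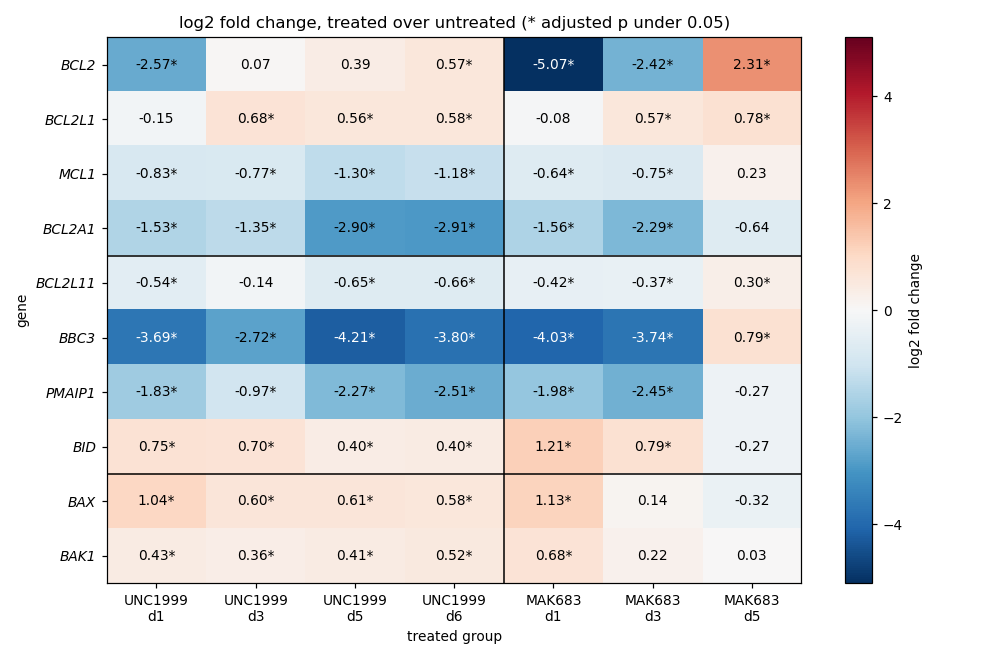
Log2 fold changes of the 10 members (rows, antiapoptotic genes at the top, BH3-only genes in the middle, effectors at the bottom) in the 7 treated groups (columns), each over the 2 untreated libraries; blue is lower, red is higher, and an asterisk marks an adjusted p under 0.05. BBC3 runs between -2.72 and -4.21 in 6 groups and stands at 0.79 at MAK683 day 5, and BCL2 runs between -5.07 at MAK683 day 1 and 2.31 at MAK683 day 5.

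The members differed in how far their levels moved. On the log2(CPM + 0.1) scale, the range of the 8 group means was 6.83 for BCL2, 4.96 for BBC3, 2.84 for BCL2A1 and 2.51 for PMAIP1. Among all tested genes, whose median range was 1.41, BCL2 stood at percentile 99.7 of this range and BBC3 at percentile 97.3. Both ends of the BCL2 range are single libraries, of MAK683 days 1 and 5, and the top of the BBC3 range is that of MAK683 day 5. Over the groups with 2 libraries, the group means of BCL2 ran between 1.17 and 10.3 CPM. MCL1, BID and BAX lay near that median, with ranges of 1.53, 1.48 and 1.45. BCL2L11, BCL2L1 and BAK1 moved less than most genes, with ranges of 0.96, 0.93 and 0.68.

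BCL2, the guardian for which the family is named, had the widest range. Cells under UNC1999 had 1.14 and 1.20 CPM (day 1), 6.81 and 7.75 CPM (day 3), 10.0 and 8.15 CPM (day 5) and 9.24 and 11.4 CPM (day 6). It was 0.203, 1.30 and 34.5 CPM at MAK683 days 1, 3 and 5, and 6.94 and 6.96 CPM in untreated cells. By group mean, both compounds had their lowest BCL2 level at day 1 and their highest on the last day sampled. The MAK683 day 1 value rests on 6 counts and the day 3 value on 44, against 247 and 236 counts in untreated cells. BCL2 was 5.92-fold lower at UNC1999 day 1 (log2 -2.57, SE 0.23, adjusted p = 1.09e-09), and the groups did not overlap. It was 33.6-fold lower at MAK683 day 1 (log2 -5.07, SE 0.42, adjusted p = 3.41e-10) and 5.34-fold lower at MAK683 day 3 (log2 -2.42, SE 0.29, adjusted p = 2.14e-07). At UNC1999 day 3 the levels overlapped with untreated cells (log2 0.07, 95% interval -0.33 to 0.46, adjusted p = 0.784). At UNC1999 day 5 both libraries lay above both untreated ones without passing the test (log2 0.39, adjusted p = 0.0808). At UNC1999 day 6 BCL2 was 1.48-fold higher (log2 0.57, SE 0.19, adjusted p = 0.013), a call lost without untreated library a (log2 0.56, adjusted p = 0.0524) or without UNC1999 day 6 replicate 2 (log2 0.41, adjusted p = 0.155). The MAK683 day 5 level was 4.96-fold higher than in untreated cells (log2 2.31, SE 0.21, adjusted p = 1.12e-08). In order of group means, MAK683 day 5 was followed by UNC1999 days 6, 5 and 3, untreated cells, MAK683 day 3, UNC1999 day 1 and MAK683 day 1. Neighbours in that order overlapped for UNC1999 days 6 and 5 and for UNC1999 day 3 and untreated cells.

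**Figure D2:**
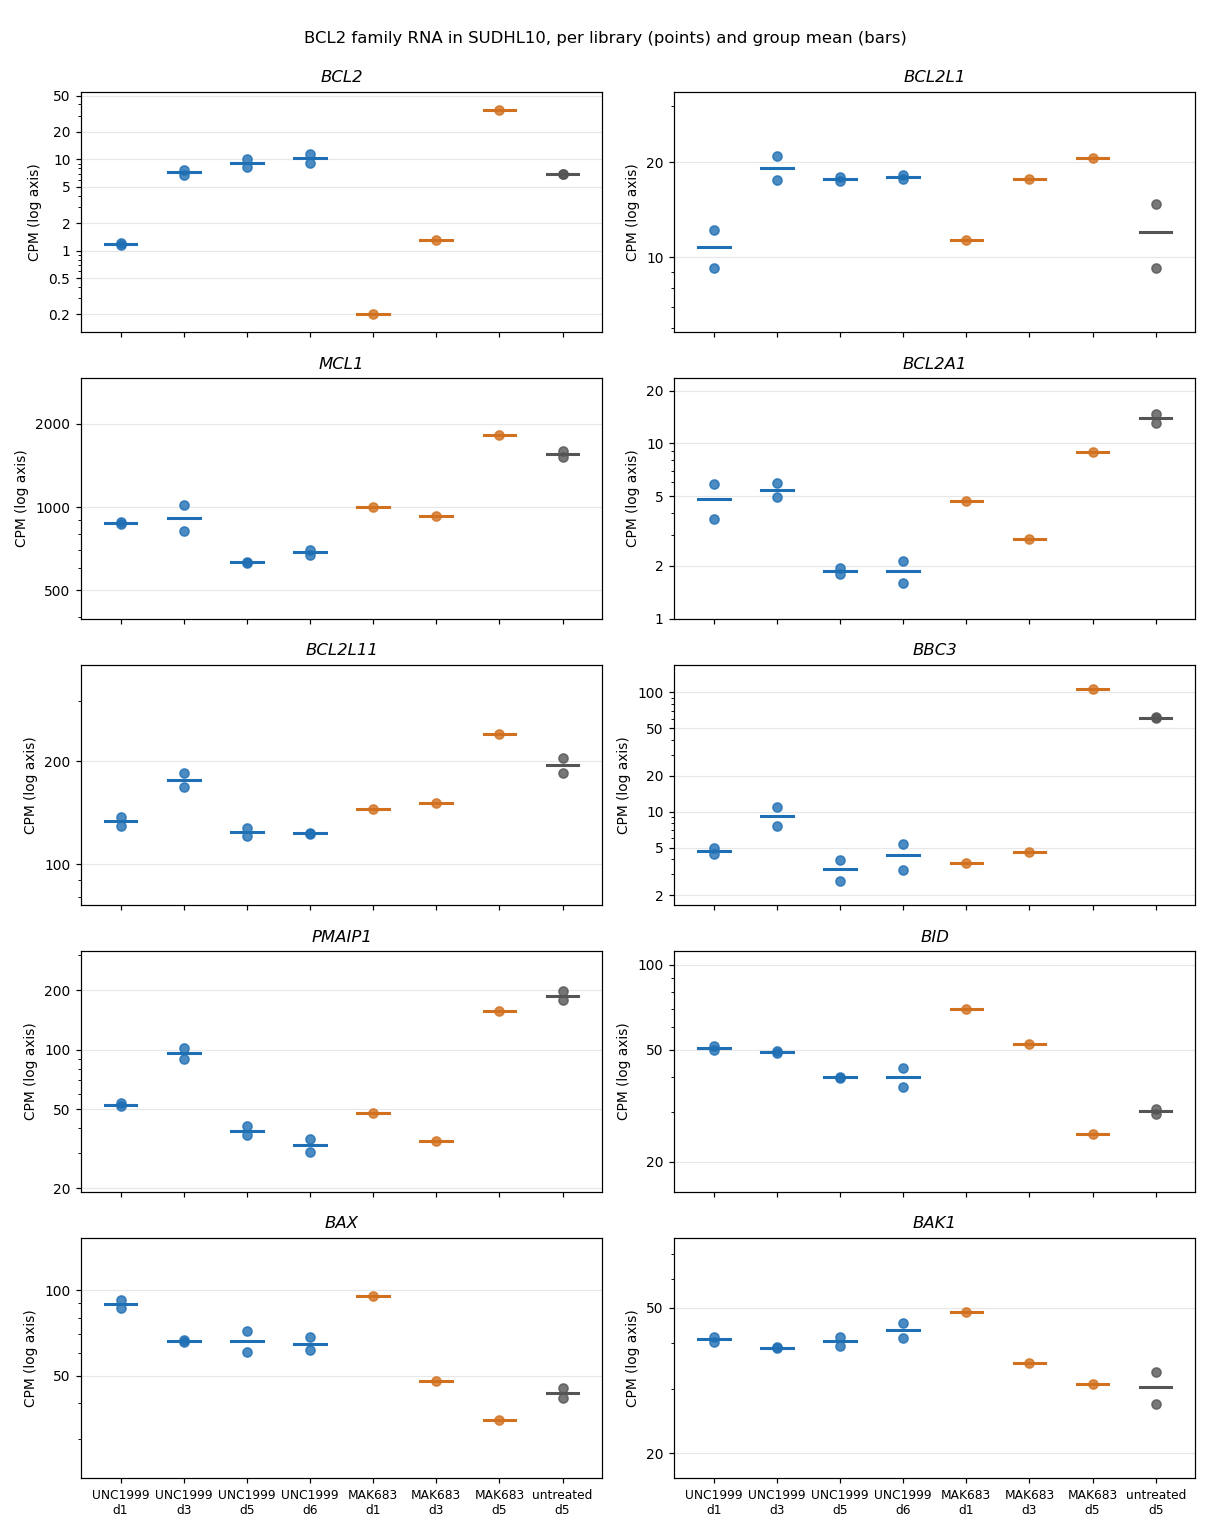
CPM (log axis, a scale of its own in each panel) of the 10 members in every library (points) with the group mean (bars), for UNC1999 days 1, 3, 5 and 6 (blue), MAK683 days 1, 3 and 5 (orange, 1 library each) and untreated cells (grey). BCL2 spans 0.203 to 34.5 CPM, BBC3 is at 60.4 and 62.2 CPM in untreated cells and 106 CPM at MAK683 day 5 but at most 10.9 CPM elsewhere, and BAK1 keeps within 27.3 to 48.6 CPM.

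MCL1, a short-lived guardian on which many B cell tumours rely, was lower in 6 of the 7 treated groups. Levels under UNC1999 were 871 and 882 CPM (day 1), 818 and 1014 CPM (day 3), 630 and 633 CPM (day 5) and 671 and 702 CPM (day 6). It was 999, 927 and 1830 CPM at MAK683 days 1, 3 and 5, and 1513 and 1602 CPM in untreated cells. All libraries but that of MAK683 day 5 lay below both untreated ones. The fall was deepest at UNC1999 day 5, at 2.47-fold lower (log2 -1.30, SE 0.08, adjusted p = 2.17e-12), and smallest at MAK683 day 1, at 1.56-fold lower (log2 -0.64, SE 0.10, adjusted p = 1.12e-05). MCL1 at MAK683 day 5 was above both untreated libraries without passing the test (log2 0.23, adjusted p = 0.0806). That comparison passed without UNC1999 day 3 replicate 1 (adjusted p = 0.0247) or replicate 2 (adjusted p = 0.024), with a log2 of 0.23 in both.

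BCL2A1, a guardian gene known as an NF-kB target, was lower in the same 6 groups. In UNC1999 libraries it was at 5.89 and 3.71 CPM (day 1), 4.94 and 5.93 CPM (day 3), 1.79 and 1.94 CPM (day 5) and 1.59 and 2.12 CPM (day 6). It was 4.71, 2.83 and 8.92 CPM at MAK683 days 1, 3 and 5, and 13.1 and 14.7 CPM in untreated cells. Every treated library lay below both untreated ones. BCL2A1 was 7.45-fold lower at UNC1999 day 5 (log2 -2.90, SE 0.26, adjusted p = 8.94e-10) and 7.53-fold lower at day 6 (log2 -2.91, SE 0.27, adjusted p = 1.29e-09). It was 4.91-fold lower at MAK683 day 3 (log2 -2.29, SE 0.33, adjusted p = 2.6e-06). The MAK683 day 5 difference did not pass (log2 -0.64, 95% interval -1.25 to -0.03, adjusted p = 0.107).

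BCL2L1, whose main product BCL-XL is a long-lived guardian, was the antiapoptotic member that moved least. It was measured under UNC1999 at 12.2 and 9.28 CPM (day 1), 17.6 and 20.9 CPM (day 3), 17.4 and 17.9 CPM (day 5) and 17.7 and 18.3 CPM (day 6). It was 11.4, 17.7 and 20.6 CPM at MAK683 days 1, 3 and 5. The untreated libraries stood apart from each other, at 9.28 and 14.7 CPM. Day 1 of both compounds overlapped with untreated cells, and all later treated libraries lay above them. BCL2L1 was higher by 1.60-fold, 1.47-fold and 1.50-fold at UNC1999 days 3, 5 and 6 (adjusted p = 0.00195, 0.00869 and 0.00682) and by 1.48-fold and 1.72-fold at MAK683 days 3 and 5 (adjusted p = 0.0306 and 0.00642). All 5 calls were lost without untreated library a, the lower of the pair, with log2 values of 0.37, 0.24 and 0.28 at UNC1999 days 3, 5 and 6 and 0.22 and 0.41 at MAK683 days 3 and 5. Without that library BCL2L1 at UNC1999 day 1 became lower (log2 -0.52, adjusted p = 0.0235), where all libraries gave log2 -0.15 (adjusted p = 0.495). Without untreated library b, BCL2L1 at day 1 turned in direction, with a log2 of 0.21 under UNC1999 and 0.29 under MAK683, neither passing. The MAK683 day 3 call was also lost with DESeq2's size factors (adjusted p = 0.0518), with DESeq2's Wald test (0.101) and with library size alone (0.0507).

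Of the BH3-only members, BBC3, which encodes PUMA and is a classic p53 and FOXO target, moved furthest. Under UNC1999 the gene had 5.00 and 4.47 CPM (day 1), 7.61 and 10.9 CPM (day 3), 2.64 and 3.98 CPM (day 5) and 5.41 and 3.26 CPM (day 6). It was 3.76, 4.57 and 106 CPM at MAK683 days 1, 3 and 5, and 62.2 and 60.4 CPM in untreated cells. The 10 libraries of UNC1999 and of MAK683 days 1 and 3 all lay far below the untreated pair, and the MAK683 day 5 library lay above it. BBC3 was 12.9-fold lower at UNC1999 day 1 (log2 -3.69, SE 0.20, adjusted p = 1.15e-13) and 18.5-fold lower at day 5 (log2 -4.21, SE 0.20, adjusted p = 1.34e-14). The smallest of its falls was at UNC1999 day 3, at 6.59-fold lower (log2 -2.72, SE 0.18, adjusted p = 6.81e-12). It was 16.3-fold lower at MAK683 day 1 (log2 -4.03, SE 0.27, adjusted p = 1.41e-11) and 13.4-fold lower at MAK683 day 3 (log2 -3.74, SE 0.26, adjusted p = 2.74e-11). In the MAK683 day 5 library it was 1.73-fold higher (log2 0.79, SE 0.20, adjusted p = 0.00303).

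PMAIP1, which encodes NOXA, the BH3-only partner of MCL1 and BFL1, was lower in the same 6 groups as BBC3. UNC1999 cells had 53.7 and 52.1 CPM (day 1), 89.7 and 102 CPM (day 3), 37.0 and 41.0 CPM (day 5) and 35.3 and 30.6 CPM (day 6). It was 47.8, 34.5 and 156 CPM at MAK683 days 1, 3 and 5, and 179 and 197 CPM in untreated cells. Every treated library lay below both untreated ones, least so at MAK683 day 5. PMAIP1 was 1.96-fold lower at UNC1999 day 3 (log2 -0.97, SE 0.09, adjusted p = 2.72e-09) and 5.70-fold lower at day 6 (log2 -2.51, SE 0.10, adjusted p = 4.47e-16). It was 5.45-fold lower at MAK683 day 3 (log2 -2.45, SE 0.13, adjusted p = 2.1e-13). The log2 difference of -0.27 at MAK683 day 5 did not pass (adjusted p = 0.0793). It passed without untreated library a (log2 -0.40, adjusted p = 0.0216), and without either UNC1999 day 3 library (log2 -0.27, adjusted p = 0.0483 and 0.0486). It passed also with DESeq2's size factors (adjusted p = 0.035), DESeq2's Wald test (0.0381) and no expression filter (0.0429).

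BCL2L11, which encodes BIM, an activator of BAX and BAK that also binds all guardians, moved much less. Levels under UNC1999 were 137 and 130 CPM (day 1), 168 and 185 CPM (day 3), 127 and 121 CPM (day 5) and 124 and 123 CPM (day 6). It was 145, 150 and 239 CPM at MAK683 days 1, 3 and 5, and 185 and 204 CPM in untreated cells. The treated libraries lay below the untreated ones, narrowly at UNC1999 day 3, apart from MAK683 day 5, which lay above. BCL2L11 was 1.57-fold lower at UNC1999 day 5 (log2 -0.65, SE 0.08, adjusted p = 1.61e-07) and 1.29-fold lower at MAK683 day 3 (log2 -0.37, SE 0.10, adjusted p = 0.0028). At UNC1999 day 3 the difference did not pass (log2 -0.14, adjusted p = 0.132). It passed without untreated library a (log2 -0.22, adjusted p = 0.0403) or UNC1999 day 3 replicate 2 (log2 -0.21, adjusted p = 0.0485). At MAK683 day 5 it was 1.23-fold higher (log2 0.30, SE 0.10, adjusted p = 0.0194), a call lost without untreated library a (log2 0.16, adjusted p = 0.267) or UNC1999 day 1 replicate 2 (log2 0.26, adjusted p = 0.059), and with DESeq2's size factors (log2 0.25, adjusted p = 0.057).

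BID, a BH3-only protein that caspase-8 cleaves to link death receptors to mitochondria, went the other way. In UNC1999 libraries it was at 50.0 and 51.7 CPM (day 1), 48.5 and 49.5 CPM (day 3), 39.6 and 40.1 CPM (day 5) and 43.2 and 36.7 CPM (day 6). It was 70.0, 52.2 and 25.0 CPM at MAK683 days 1, 3 and 5, and 29.6 and 30.9 CPM in untreated cells. All UNC1999 libraries and those of MAK683 days 1 and 3 lay above untreated cells, and MAK683 day 5 lay below. BID was 2.31-fold higher at MAK683 day 1 (log2 1.21, SE 0.12, adjusted p = 5.31e-09) and 1.68-fold higher at UNC1999 day 1 (log2 0.75, SE 0.10, adjusted p = 6.67e-07). It was 1.32-fold higher at UNC1999 day 6 (log2 0.40, SE 0.10, adjusted p = 0.00135), a call lost without UNC1999 day 6 replicate 1 (log2 0.28, adjusted p = 0.0637). The MAK683 day 5 difference did not pass (log2 -0.27, 95% interval -0.54 to -0.01, adjusted p = 0.112).

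BAX, an effector that moves to mitochondria when activated and is a p53 target, was higher in 5 of the 7 treated groups. It was measured under UNC1999 at 86.7 and 91.9 CPM (day 1), 66.9 and 65.5 CPM (day 3), 60.5 and 72.0 CPM (day 5) and 68.2 and 61.4 CPM (day 6). It was 95.6, 48.1 and 34.8 CPM at MAK683 days 1, 3 and 5, and 45.3 and 41.8 CPM in untreated cells. Only the MAK683 day 5 library lay below the untreated pair. BAX was 2.05-fold higher at UNC1999 day 1 (log2 1.04, SE 0.10, adjusted p = 2.01e-09) and 2.19-fold higher at MAK683 day 1 (log2 1.13, SE 0.11, adjusted p = 9.74e-09). The difference at MAK683 day 3 did not pass (log2 0.14, 95% interval -0.10 to 0.39, adjusted p = 0.342). Nor did that at MAK683 day 5 (log2 -0.32, 95% interval -0.58 to -0.07, adjusted p = 0.0515), which sat at the threshold. It passed as lower when any of 6 libraries was left out, namely untreated library b, UNC1999 day 1 replicate 2 and both libraries of UNC1999 days 3 and 5, with log2 values of -0.38 to -0.32 and adjusted p of 0.0406 to 0.0478. It passed also with DESeq2's size factors (adjusted p = 0.022), DESeq2's Wald test (0.0223) and no expression filter (0.0289).

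BAK1, whose product BAK sits in the outer mitochondrial membrane, was the member with the narrowest range. Under UNC1999 the gene had 40.4 and 41.5 CPM (day 1), 38.8 and 38.9 CPM (day 3), 39.2 and 41.6 CPM (day 5) and 41.4 and 45.5 CPM (day 6). It was 48.6, 35.4 and 30.9 CPM at MAK683 days 1, 3 and 5, and 27.3 and 33.5 CPM in untreated cells. Every treated library but that of MAK683 day 5 lay above both untreated ones. BAK1 was 1.60-fold higher at MAK683 day 1 (log2 0.68, SE 0.13, adjusted p = 9.84e-05) and 1.43-fold higher at UNC1999 day 6 (log2 0.52, SE 0.11, adjusted p = 0.000237). On days 1, 3 and 5 of UNC1999 it was higher by 1.35-fold, 1.28-fold and 1.33-fold (adjusted p = 0.00152, 0.00671 and 0.00195). These last 3 calls were lost without untreated library a, with log2 values of 0.23, 0.21 and 0.25, and that of day 1 also without UNC1999 day 1 replicate 2 (log2 0.32, adjusted p = 0.0614). The differences at MAK683 day 3 (log2 0.22, adjusted p = 0.179) and day 5 (log2 0.03, adjusted p = 0.924) did not pass. The difference at MAK683 day 3 passed without untreated library b (log2 0.37, adjusted p = 0.0356), and that at day 5 was -0.18 without untreated library a and -0.01 without UNC1999 day 1 replicate 2.

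Change over time within UNC1999 was compared directly with day 1, in the fit over all 13 libraries. BCL2 and BCL2L1 were higher, and BAX lower, at each of days 3, 5 and 6 than at day 1. At day 3, 6 members passed, 5 higher and 1 lower, where 35.4% of all tested genes passed (17.2% higher, 18.2% lower). BCL2 exceeded its day 1 level 6.21-fold at day 3 (log2 2.63, SE 0.23, adjusted p = 4.51e-09), and BBC3 (log2 0.97), PMAIP1 (log2 0.86), BCL2L1 (log2 0.84) and BCL2L11 (log2 0.40) were higher with it, at adjusted p of at most 0.000755. BAX at day 3 was 1.35-fold below its day 1 level (log2 -0.43, SE 0.10, adjusted p = 0.000992).

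At day 5, 7 members passed, 2 higher and 5 lower than at day 1, against 41.6% of all tested genes (19.6% higher, 22% lower). At day 6 the count was again 7, 2 higher and 5 lower, against 47.5% (22.1% higher, 25.5% lower). BCL2 exceeded its day 1 level 8.77-fold at day 6 (log2 3.13, SE 0.23, adjusted p = 6.34e-11). At both days MCL1, BCL2A1, PMAIP1, BID and BAX were lower than at day 1, of which BCL2A1 fell most, by 1.37 at day 5 (adjusted p = 0.000173) and 1.38 at day 6 (adjusted p = 0.00016) on the log2 scale. PMAIP1 fell by 0.44 at day 5 and 0.68 at day 6, and MCL1 fell by 0.47 at day 5 and 0.35 at day 6, all on the log2 scale. The rises of BBC3 and BCL2L11 at day 3 were not seen at the later days, where neither passed (BBC3 log2 -0.51, adjusted p = 0.0639, at day 5 and log2 -0.10 at day 6; BCL2L11 log2 -0.10 and -0.12).

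Several of these calls depended on 1 library or on the processing. Without UNC1999 day 1 replicate 2, BAX at days 3 and 5 (log2 -0.30 and -0.32), BID at days 5 and 6 (log2 -0.25 at both) and MCL1 at day 6 (log2 -0.27) no longer passed. BID at day 6 also did not pass without UNC1999 day 6 replicate 2 (log2 -0.23) or by DESeq2's Wald test (log2 -0.26, adjusted p = 0.0502). BBC3 at day 5 passed as lower without UNC1999 day 5 replicate 2 (log2 -0.84, adjusted p = 0.0157) or without either library of days 3 or 6 (log2 -0.51, adjusted p = 0.0397 to 0.0428), and with no expression filter (log2 -0.44, adjusted p = 0.044). MCL1 at day 3 passed as higher than at day 1 without UNC1999 day 3 replicate 1 (log2 0.21, adjusted p = 0.0414), where all libraries gave log2 0.06.

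Under MAK683 the later days were set against the single day 1 library, a comparison added after the data were seen. At day 3, 5 members passed, BCL2 higher and BAX, BAK1, PMAIP1 and BID lower, where 19.7% of all tested genes passed (10.2% higher, 9.54% lower). BCL2 exceeded its day 1 level 6.28-fold (log2 2.65, SE 0.53, adjusted p = 0.000988), with 44 and 6 counts. BAX was 1.99-fold lower (log2 -0.99, SE 0.14, adjusted p = 1.48e-05). The calls of BAK1 (log2 -0.46) and BID (log2 -0.42), with adjusted p of 0.0339 and 0.0323, were lost under DESeq2's size factors (0.0544 and 0.052), DESeq2's Wald test (0.0671 and 0.0568) and with no expression filter (0.0818 and 0.106). Without UNC1999 day 1 replicate 2 they were lost too (log2 -0.39 and -0.36), as was PMAIP1 (log2 -0.40), which left 3 members. BCL2L1 did not pass (log2 0.64, adjusted p = 0.0772) but did with no expression filter (log2 0.71, adjusted p = 0.0121). It passed too without untreated library a (log2 0.68) or b (log2 0.64) or UNC1999 day 1 replicate 2 (log2 0.71).

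At MAK683 day 5 all 10 members differed from MAK683 day 1, 7 higher and 3 lower, where 52.4% of all tested genes did (26% higher, 26.4% lower). BCL2 exceeded its day 1 level 167-fold (log2 7.38, SE 0.42, adjusted p = 5.12e-13), with 998 and 6 counts. BBC3 was 28.2-fold higher (log2 4.82, SE 0.29, adjusted p = 1.75e-12). BID (2.80-fold), BAX (2.74-fold) and BAK1 (1.57-fold) were lower at day 5 than at day 1. Each side is 1 library, so neither could be left out.

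The 2 compounds were compared at the same dose on days 1, 3 and 5, in 30 member tests out of 3 comparisons fitted across all genes. They differed in few members at day 1 and in most at day 5. At day 1, BCL2 and BID passed, 1 higher and 1 lower under UNC1999, where 8.05% of all tested genes passed (4.4% higher, 3.65% lower). BCL2 was at 1.14 and 1.20 CPM under UNC1999 and 0.203 CPM under MAK683, a 5.67-fold difference (log2 2.50, 95% interval 1.47 to 3.54, adjusted p = 0.00163). BID was at 50.0 and 51.7 CPM under UNC1999 and 70.0 CPM under MAK683 (log2 -0.46, 95% interval -0.70 to -0.22, adjusted p = 0.0135), a call lost without either UNC1999 day 1 replicate (log2 -0.44 and -0.47, adjusted p = 0.0927 and 0.0642). The other 8 members did not pass at day 1. Their intervals were narrow for BCL2L11 (log2 -0.32 to 0.08), BAX (-0.34 to 0.14) and MCL1 (-0.39 to 0.02), and wide for BCL2A1 (-0.60 to 0.66) and BBC3 (-0.24 to 0.91).

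At day 3, 5 members passed, all higher under UNC1999, where 22.6% of all tested genes passed (10.8% higher, 11.8% lower). BCL2 was again the most different, at 6.81 and 7.75 CPM under UNC1999 and 1.30 CPM under MAK683 (log2 2.49, 95% interval 1.88 to 3.09, adjusted p = 1.57e-06). PMAIP1 was at 89.7 and 102 CPM under UNC1999 and 34.5 CPM under MAK683 (log2 1.47, 95% interval 1.22 to 1.73, adjusted p = 8.81e-09). BAX was 1.38-fold higher under UNC1999 (log2 0.46, adjusted p = 0.00691). BBC3 was 2.03-fold higher (log2 1.02, adjusted p = 0.00481) and BCL2A1 1.92-fold (log2 0.94, adjusted p = 0.0357), and both calls were lost without UNC1999 day 3 replicate 2 (log2 0.74 and 0.81, adjusted p = 0.0586 and 0.128), which left 3 members. BCL2L11 did not pass (log2 0.23, adjusted p = 0.0959) but did without untreated library a (log2 0.26, adjusted p = 0.0393) or UNC1999 day 3 replicate 1 (log2 0.30, adjusted p = 0.0366), with library size alone (adjusted p = 0.0213) and by DESeq2's Wald test (adjusted p = 0.0414). For MCL1 the interval ran between log2 -0.22 and 0.19, for BID between -0.34 and 0.16, for BCL2L1 between -0.32 and 0.56 and for BAK1 between -0.14 and 0.41.

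At day 5, 9 members passed, 3 higher and 6 lower under UNC1999, where 52.1% of all tested genes passed (26.4% higher, 25.7% lower). BBC3 was at 2.64 and 3.98 CPM under UNC1999 and 106 CPM under MAK683, 31.9-fold lower (log2 -5.00, 95% interval -5.45 to -4.54, adjusted p = 8.7e-15). BCL2A1 (4.78-fold), PMAIP1 (4.01-fold), BCL2 (3.79-fold), MCL1 (2.90-fold) and BCL2L11 (1.93-fold) were also lower under UNC1999. BAX (1.90-fold), BID (1.59-fold) and BAK1 (1.31-fold) were higher under UNC1999, and BAK1 lost its call without UNC1999 day 5 replicate 2 (log2 0.34, adjusted p = 0.0831). BCL2L1 did not pass (log2 -0.22, 95% interval -0.66 to 0.22, adjusted p = 0.403). All 9 calls rest on the single MAK683 day 5 library.

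**Figure D3:**
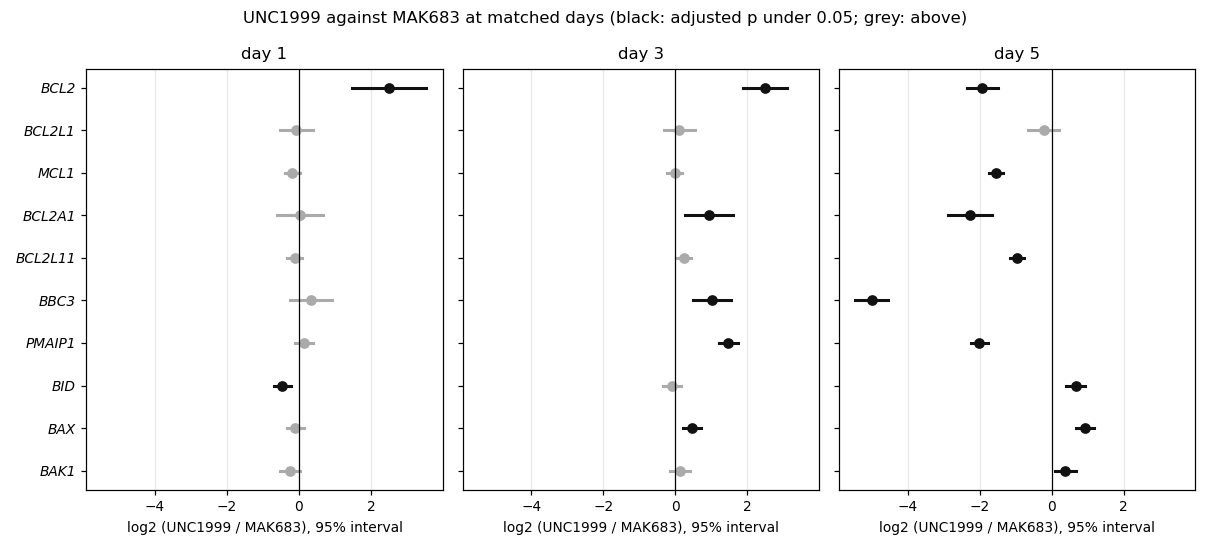
Log2 ratio of UNC1999 (2 libraries) over MAK683 (1 library) for the 10 members at days 1, 3 and 5, with 95% intervals (bars), in black where the adjusted p is under 0.05 and in grey otherwise. BCL2 lies to the right at days 1 and 3 (2.50 and 2.49) and to the left at day 5 (-1.92), and BBC3 is at -5.00 at day 5.

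The rest of the mitochondrial pathway was read from lists. The list counts below stand beside 54.7% of all tested genes passing at UNC1999 day 1, 57.1% at day 3, 58.7% at day 5 and 58.2% at day 6, and 48.6%, 48.4% and 29.6% at MAK683 days 1, 3 and 5. Of 11 other BCL2 family genes, 9 were tested. Under UNC1999 day 5, 2 were higher and 4 lower (list median log2 -0.38, all tested genes 0.03), and under MAK683 day 5, 2 were higher (list median log2 0.15). BIK, a BH3-only gene, was 6.22-fold higher at UNC1999 day 5, at 5.94 CPM against 0.954 CPM in untreated cells, and passed in all groups but MAK683 day 1. BMF, a BH3-only gene, was lower at UNC1999 day 1 (log2 -1.47) and MAK683 day 1 (log2 -2.03), and slightly higher at MAK683 day 5 (log2 0.28). HRK, a BH3-only gene, had 0 counts at MAK683 days 1 and 3 against 195 in the untreated pair, at least 27.6-fold and at least 31.7-fold lower with 3 counts set as the floor over the group. Its mean level was also low at UNC1999 days 1, 3, 5 and 6, at 0.328, 0.408, 0.116 and 0.0724 CPM. In untreated cells HRK was at 2.80 CPM, and at MAK683 day 5 it was at 2.11 CPM.

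Downstream of BAX and BAK, the apoptosome and caspase list of 14 tested genes had 10 higher and 2 lower at UNC1999 day 1 and 7 higher and 2 lower at day 5, with list medians of 0.46 and 0.23 against -0.02 and 0.03 for all tested genes. The 9 of 14 at day 5 were near the 58.7% of all tested genes that passed there. At MAK683 day 5, 4 were lower, with a list median of -0.13. CYCS, which encodes cytochrome c, was higher by log2 1.31, 1.30, 1.47 and 1.37 at UNC1999 days 1, 3, 5 and 6 and by 1.50 and 1.01 at MAK683 days 1 and 3, and lower at MAK683 day 5 (log2 -0.82). CYCS has processed pseudogenes, and how reads that match them were counted is not given in the sources used here. CASP2 and DFFA, which encode a caspase and the inhibitor of the caspase-activated nuclease, were higher in the same 6 groups (log2 0.66 to 1.04 and 0.48 to 0.89). APAF1, the apoptosome scaffold, was lower in all 4 UNC1999 groups (log2 -0.24 to -0.63), at 43.4 CPM at UNC1999 day 5 against 67.4 CPM in untreated cells, and did not pass under MAK683. CASP8, the caspase that cleaves BID, was lower at UNC1999 days 3, 5 and 6 (log2 -0.60, -0.64 and -0.71) and MAK683 days 3 and 5 (log2 -0.58 and -0.50), at 20.7 CPM at UNC1999 day 5 against 32.4 CPM in untreated cells.

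Among 8 inhibitors of apoptosis, 1 was higher and 3 were lower at UNC1999 day 5 and 1 each at MAK683 day 5. BIRC3, which encodes the ubiquitin ligase cIAP2 and is an NF-kB target, was at 22.8 CPM at UNC1999 day 5 and 253 CPM at MAK683 day 5, against 170 CPM in untreated cells, a log2 difference of -2.89 and 0.58. At MAK683 days 1 and 3 BIRC3 was at 37.6 and 50.9 CPM. Of the death receptor list, 8 of 9 genes were tested, with 6 higher and 2 lower at UNC1999 day 5 and 4 higher and 2 lower at MAK683 day 5. FAS, the receptor whose signal BID relays, was at 6.70 CPM at UNC1999 day 5 and 125 CPM at MAK683 day 5, against 52.3 CPM in untreated cells (log2 -2.96 and 1.26). At MAK683 days 1 and 3 FAS was at 11.3 and 13.1 CPM. TNFRSF10B, a receptor for the ligand TRAIL, was lower in 6 groups (log2 -0.71 to -1.31) and did not pass at MAK683 day 5 (log2 -0.27). TNFRSF10A, another TRAIL receptor, was higher at UNC1999 days 1 and 5 (log2 1.08 and 0.46) and at MAK683 days 1 and 5 (log2 0.40 and 0.44), at 53.0 CPM at UNC1999 day 5 and 52.3 CPM at MAK683 day 5, against 38.7 CPM in untreated cells. It did not pass at the other days.

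**Figure D4:**
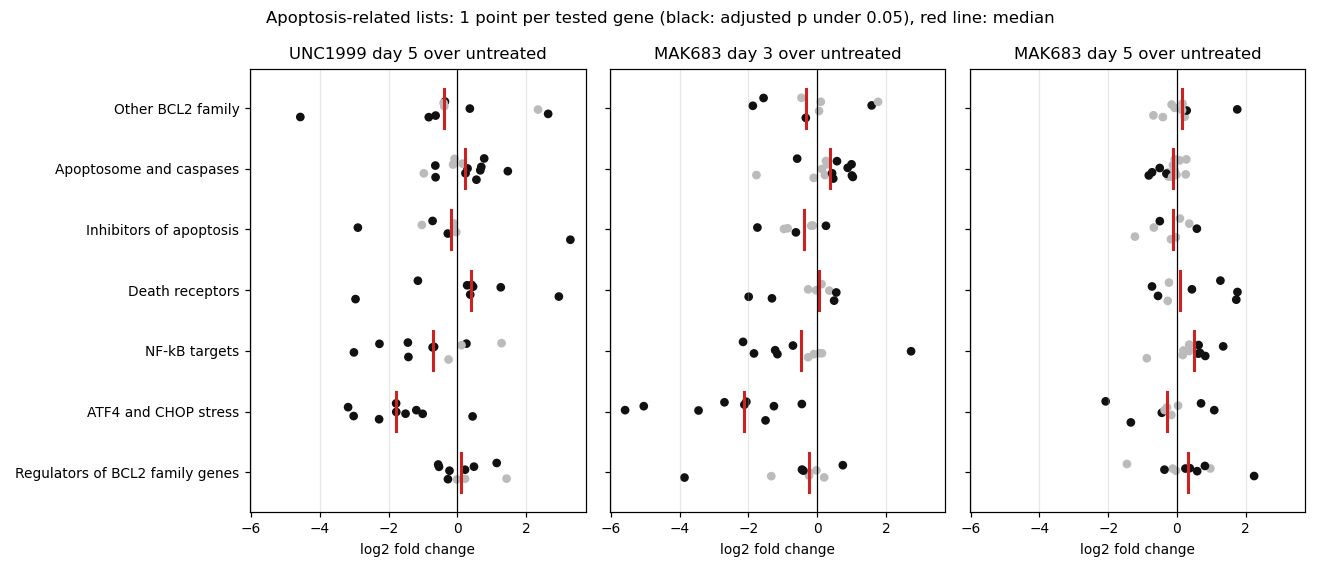
Log2 fold change over untreated cells of each tested gene (points, black where the adjusted p is under 0.05) in 7 lists at UNC1999 day 5, MAK683 day 3 and MAK683 day 5, with the list median (red line). Genes with 0 counts in a group (HRK, BIRC7 and PRDM1 at MAK683 day 3) are not drawn. The ATF4 and CHOP stress list has medians of -1.78, -2.12 and -0.29 in the 3 panels, and the NF-kB list -0.70, -0.48 and 0.49.

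Lists of genes upstream of the family were read in the same way. Of 9 ATF4 and CHOP stress genes, the arm that is known to raise PMAIP1 and BBC3, 8 were lower at UNC1999 days 1, 5 and 6 and all 9 at MAK683 days 1 and 3, with medians of -1.44, -1.78 and -1.92 and of -1.94 and -2.12. At UNC1999 day 3, 4 were lower and 2 higher, with a median of -0.31, and at MAK683 day 5, 3 were lower and 2 higher, with a median of -0.29. BBC3 and PMAIP1 were lower at UNC1999 day 3 (log2 -2.72 and -0.97). At MAK683 day 5 BBC3 was higher (log2 0.79) and PMAIP1 did not pass (log2 -0.27). The summed level of the list was 949 to 970 CPM at UNC1999 day 1, 1682 to 2125 at day 3, 1180 to 1272 at day 5 and 1226 to 1290 at day 6, then 681, 842 and 2137 CPM at MAK683 days 1, 3 and 5, and 2419 to 2558 CPM in untreated cells. CHAC1, a CHOP target, was at 4.54 CPM at UNC1999 day 5 and 9.79 CPM at MAK683 day 5, against 41.2 CPM in untreated cells (log2 -3.18 and -2.07). At MAK683 days 1 and 3 CHAC1 was at 0.474 and 0.855 CPM. The part of this stress list in the levels of BBC3 and PMAIP1 was not tested.

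Of 10 NF-kB targets, 6 were lower and 1 higher at UNC1999 day 5, 5 lower and 1 higher at MAK683 day 3, and 5 higher at MAK683 day 5, where 58.7%, 48.4% and 29.6% of all tested genes passed. At UNC1999 day 3 they were 3 higher and 3 lower, with a median of -0.05, while BCL2A1 was lower there. Their summed level was 371 to 761 CPM in all UNC1999 libraries, 534, 533 and 1361 CPM at MAK683 days 1, 3 and 5, and 911 to 998 CPM in untreated cells. RELB, an NF-kB subunit that is itself a target, was at 24.4 CPM at UNC1999 day 5 and 304 CPM at MAK683 day 5, against 196 CPM in untreated cells (log2 -3.01 and 0.63). At MAK683 days 1 and 3 RELB was at 26.1 and 44.1 CPM. NFKB2, the gene of another NF-kB subunit, was lower in all UNC1999 groups (log2 -1.72 to -2.27) and higher at MAK683 day 5 (log2 0.62). It was at 70.3 and 66.8 CPM at MAK683 days 1 and 3, against 239 CPM in untreated cells. BCL2A1 did not share the rise at MAK683 day 5, with log2 -0.64. The part of NF-kB in the level of BCL2A1 was not tested.

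Among 10 regulators of BCL2 family genes, 3 were higher and 4 lower at UNC1999 day 5, and 5 higher and 1 lower at MAK683 day 5, against 58.7% and 29.6% of all tested genes passing in either direction. BCL6, a repressor known to silence BCL2 in germinal centre B cells, was lower at UNC1999 day 1 (log2 -1.07) and MAK683 day 1 (log2 -1.20), the groups in which BCL2 was lowest. BCL6 was highest at MAK683 day 5, where BCL2 was highest too, at 760 CPM against 640 CPM in untreated cells. It was at 476, 546 and 565 CPM at UNC1999 days 3, 5 and 6 and 485 CPM at MAK683 day 3. FOXO3, an activator of BBC3 and BCL2L11, was lower at UNC1999 day 5 (log2 -0.54) and higher at MAK683 day 5 (log2 0.59). Its mean level at UNC1999 days 1, 3, 5 and 6 was 69.6, 88.8, 61.3 and 60.5 CPM, against 88.9 CPM in untreated cells. At MAK683 days 1, 3 and 5 FOXO3 was at 51.7, 75.4 and 134 CPM. IRF4 was higher at UNC1999 day 3 (log2 3.70) and at MAK683 day 5, where it was at 7.43 CPM against 1.57 CPM in untreated cells (log2 2.24). The 2 UNC1999 day 3 libraries stood apart from each other, at 12.1 and 28.5 CPM of IRF4. Its mean level at UNC1999 days 1, 5 and 6 was 1.93, 3.46 and 3.49 CPM. At MAK683 days 1 and 3 IRF4 was at 0.44 and 0.62 CPM. The part of these regulators in the members' levels was not tested.

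The genes most like BCL2 and BBC3 in their pattern over the 8 group means were sought among 10321 genes with a mean log2 CPM of at least 1. For BCL2 they were PLEKHA4 (r = 0.995), PCSK4 (0.992), LITAF (0.984), NPAS1 (0.981) and ATHL1 (0.979). LITAF was at 1.08 CPM at MAK683 day 1, 30.7 CPM at MAK683 day 5 and 11.3 CPM in untreated cells. For BBC3 they were CDKN1B (r = 0.993), PRKAR2A-AS1 (0.993), ETS1 (0.992), UBE2R2 (0.992) and FBXO11 (0.992). CDKN1B, which encodes the cell cycle inhibitor p27, was at 51.0 CPM at UNC1999 day 5 and 178 CPM in untreated cells. Under MAK683 it was at 55.7 CPM at day 1 and 250 CPM at day 5. PRKAR2A-AS1 is an antisense gene, and its reads cannot be told apart from those of the gene it overlaps because the library kit does not mark strand. All points share the same libraries and depth, and with 8 points and so many genes searched, high values of r arise readily.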

How the data were processed

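The authors deposited raw whole-number counts per gene for 13 SUDHL10 libraries, from TruSeq V2 single-end libraries per the labels, a kit that does not mark strand. The submitters' processing notes name, with no role for each, Cell Ranger 3.0.2, SICER 0.0.1, Bowtie2 2.3.4.3, DESeq2, STAR 2.5.3a and the build mm9. The counter and annotation, and which human build was used, are details not given in the sources used here. Both untreated columns share 1 header and served as replicates without numbers, called library a and b here. No per-sample column was left unused. Replicates differed by more than counting noise (chi-square per degree of freedom of at least 5.78 over genes whose counts summed to 20 or more), so each counted as 1 sample.

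One model with a mean for each of 8 groups was fitted in edgeR 4.0.16 (R 4.3.3) with filterByExpr, TMM scaling and the quasi-likelihood F test. P-values were Benjamini-Hochberg adjusted over 15278 genes. In simulated data, 100 genes were changed at each of 2 folds. Of 2-fold changes, 69% were recovered at UNC1999 day 5 and 51% at MAK683 day 5, each against untreated. Of 1.5-fold changes, 51% and 43% were recovered. False calls numbered 1 and 8 in these comparisons. In the data, 58.7% and 29.6% of all tested genes passed there, far more than were changed in the simulation. The recovery rates therefore do not give the power of the tests reported here. The residual degrees of freedom were 5, the prior ones 18.6 and the common biological coefficient of variation 0.0927. Standard errors are |log2 fold change| over the root of F. CPM uses TMM effective library sizes, and the ranges of group means use log2(CPM + 0.1). Floors cover counting error only.

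Named genes were the 10 members, up to 4 genes of each list by smallest adjusted p at day 5 of either compound, and the 5 genes of most like pattern for BCL2 and BBC3. The members, lists and tests were chosen with earlier results of these data known. Values of list genes in other groups and those given in full were chosen after they were seen. The alternatives were DESeq2 1.42.0 (size factors, and its Wald test), library size alone, no filter, leaving out each replicate, leaving out the MAK683 libraries, and a replicate block. The MAK683 day 3 and 5 comparisons with day 1, and the fit without MAK683 day 5, were added after the data were seen. The mouse and chromatin data were not analysed here, and no sequences are printed. One gene of the B cell marker list is not reported here and is left out of that list's sum.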

Additional observations from a re-analysis of the deposited data

Results flagged for a closer look

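The results below drew attention because the effects of the 2 compounds differed from each other at the same day, by a direct test of UNC1999 against MAK683 in edgeR's quasi-likelihood fit. Since both are set against the same untreated libraries, that test is also the test of the difference of their effects. At day 1 they were BCL2 (log2 2.50, adjusted p = 0.00163) and BID (log2 -0.46, adjusted p = 0.0135). At day 3 they were BCL2 (log2 2.49), PMAIP1 (1.47), BBC3 (1.02), BCL2A1 (0.94) and BAX (0.46), all higher under UNC1999. At day 5 they were BBC3 (log2 -5.00), BCL2A1 (-2.26), PMAIP1 (-2.00), BCL2 (-1.92), MCL1 (-1.53) and BCL2L11 (-0.95), lower under UNC1999, and BAX (0.93), BID (0.67) and BAK1 (0.39), higher under UNC1999. BCL2, BCL2A1, BBC3 and PMAIP1 thus differed in opposite directions at days 3 and 5, and the change of the difference between those days was not tested. Every MAK683 value is that of 1 library.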

How the results depend on the processing

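Of 2350 member results under the alternatives, 2236 kept their direction and side of the threshold, 36 newly passed, 39 no longer passed and 39 changed sign, and no value that changed sign passed the test. The fits without the MAK683 libraries and without MAK683 day 5 changed no call and no sign of a member. The cause of the changes below was not tested.

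The number of members that passed changed by more than 1.5 times outside the fits that left out a library only for MAK683 day 3 against day 1, with 3 members under DESeq2's size factors and 3 under DESeq2's Wald test. Of all genes, 3015 passed there in the main fit, 3003 with DESeq2's size factors and 2949 by DESeq2's Wald test. Leaving out 1 library at a time gave 3 to 6 members there, 3 to 7 for MAK683 day 5 against untreated, 1 to 2 for UNC1999 against MAK683 at day 1 and 3 to 6 at day 3.

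Log2 values that changed sign under another processing were all small. BAK1 at MAK683 day 5 against untreated was -0.0254 with DESeq2's size factors, -0.0257 with DESeq2's Wald test and -0.00571 with no filter. BAK1 at UNC1999 day 5 against day 1 was 0.0473 with either DESeq2 setting, 0.0321 with library size alone and 0.0576 with no filter, and at day 3 against day 1 it was 0.0142 with no filter. BID at UNC1999 day 3 against day 1 was 0.00368 with library size alone and 0.0357 with no filter. MCL1 under UNC1999 against MAK683 at day 3 was 0.0165 with DESeq2's size factors, 0.0163 with DESeq2's Wald test, 0.0457 with library size alone and 0.0192 with no filter.

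Leaving out 1 library at a time gave log2 ranges across 0 for BAK1 at MAK683 day 5 (-0.18 to 0.18), BCL2 at UNC1999 day 3 (-0.029 to 0.16) and BCL2L1 at UNC1999 day 1 (-0.52 to 0.21) and MAK683 day 1 (-0.46 to 0.29), all against untreated. Against UNC1999 day 1 the ranges were BAK1 at day 3 (-0.0950 to 0.0354) and day 5 (-0.0614 to 0.074), BBC3 at day 6 (-0.54 to 0.19), and at day 3 BCL2A1 (-0.0242 to 0.55), BID (-0.0774 to 0.0608) and MCL1 (-0.0989 to 0.21). Under UNC1999 against MAK683 they were BCL2A1 (-0.34 to 0.34) and BCL2L1 (-0.29 to 0.13) at day 1 and BCL2L1 (-0.014 to 0.23) and MCL1 (-0.18 to 0.13) at day 3.

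Replicate numbers of UNC1999 did not pair the libraries: over 6 pairs of days, deviations of same-numbered libraries correlated at -0.0783 to 0.157, not all above 0.1. With the replicate block in the 8 UNC1999 libraries alone, 6, 7 and 7 members passed at days 3, 5 and 6 against day 1, as without the block. The same numbers passed in the fit over all 13 libraries, where 35.4%, 41.6% and 47.5% of all tested genes passed. BAK1 at days 3 and 5 was 0.0169 and 0.054 with the replicate block and 0.0173 and 0.0548 without, and BID at day 3 was 0.039 with it and 0.0388 without. Depth limits BCL2 at MAK683 day 1 most, with 6 counts.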

Other observations

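TNFRSF1A and TNFSF10, which encode a receptor for tumour necrosis factor and the ligand TRAIL, were lower on day 1 of both compounds and higher on the last day sampled. TNFRSF1A was at 5.01 CPM at UNC1999 day 5 and 2.14 CPM at MAK683 day 5, against 0.645 CPM in untreated cells. Its log2 fold change over untreated cells was -2.29 at UNC1999 day 1 and 3.15, 2.95 and 3.02 at days 3, 5 and 6. Under MAK683 it was -2.62 at day 1, 0.35 at day 3, which did not pass, and 1.72 at day 5. TNFSF10 was at 3.99 CPM at UNC1999 day 5 and 5.64 CPM at MAK683 day 5, against 1.67 CPM in untreated cells. Its log2 fold change was -2.41 at UNC1999 day 1 and 1.26 and 1.76 at days 5 and 6, and -2.02 and 1.76 at MAK683 days 1 and 5. It did not pass at UNC1999 day 3 (log2 0.62) or MAK683 day 3 (log2 -0.26). These levels are low, and all comparisons share the 2 untreated libraries.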
